A study of Mus musculus with 8 samples.

Results

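Lipid-associated macrophages are tissue macrophages that carry the lipid receptor TREM2, and 10 genes that mark them were followed in livers of MøFoxO1-KO mice and WT littermates. The genes are Trem2, Tyrobp, Gpnmb, Cd9, Cd63, Fabp5, Lgals3, Itgax, Lgals1 and Capg. They were taken by symbol (GENCODE M21) from the 46517 genes of the deposited count table, and all 10 were found. TREM2 is a surface receptor for lipids and lipoproteins that has no signaling tail of its own and works through the adaptor protein TYROBP, also called DAP12. Macrophages with this receptor gather in fatty and injured livers, in obese fat and in atherosclerotic plaques, where they take up lipid and cell debris. None of the 10 genes belongs to these cells alone, since several are also transcribed in Kupffer cells, dendritic cells, stellate cells, cholangiocytes or injured hepatocytes.

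The comparison asked how deletion of FoxO1, a forkhead transcription factor restrained by insulin, in myeloid cells changes the liver in nonalcoholic steatohepatitis (NASH). MøFoxO1-KO mice carried FoxO1 loxP/loxP together with Cre driven by the lysozyme 2 (Lyz2) promoter, and WT littermates carried FoxO1 loxP/loxP without Cre, so both groups had the floxed allele. The Lyz2 promoter is active in macrophages, monocytes and neutrophils throughout the body. All 8 mice were C57BL/6 males that ate a NASH-inducing diet from 6 weeks of age for 25 weeks, were 31 weeks old and had fasted for 16 hours. WT replicates are numbered 22 to 25 and MøFoxO1-KO replicates 26 to 29, each a separate mouse.

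Polyadenylated RNA of whole liver was sequenced, and 15253218 to 18025481 counts per mouse were assigned to genes. Foxo1 itself had 303 to 459 normalized counts in WT livers and an overlapping range of 290 to 429 in MøFoxO1-KO livers. The exact permutation test gave P = 0.343 for Foxo1, in RNA that also holds the Foxo1 of hepatocytes and other cells without Cre. Normalized counts are counts divided by the TMM-scaled library size of each mouse and put back on the scale of the mean library. The groups were compared with edgeR's quasi-likelihood test over the 13278 genes left by its low-count filter. Adjustment was by the Benjamini-Hochberg method over all of them. Calls required an adjusted P under 0.05 together with a log2 fold change beyond 1.5 in either direction. For single genes, exact two-sided permutation tests of normalized counts were added, for which 4 mice against 4 allow no P under 0.0286.

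The fitted changes of the 10 genes did not all point in the same direction. Gpnmb and Lgals1 fell in MøFoxO1-KO livers, Trem2 lay below every WT liver without passing the adjusted P, and the other 7 genes overlapped between the genotypes. Of the 10 genes, 5 had a higher and 5 a lower fitted mean in MøFoxO1-KO livers. Their median log2 fold change was 0.13, beside -0.01 over all tested genes. This balance rested on single mice, since without MøFoxO1-KO replicate 29 only 3 members were higher and the median was -0.81, and without WT replicate 24 it was 0.59. At both limits 1 member was called, Gpnmb, which was lower. Among all tested genes 25 were called (0.188%), and 18 of them were lower (0.136%). At the adjusted P alone 2 members passed, Gpnmb and Lgals1, where 0.294% of all tested genes did. At an unadjusted P under 0.05 the test picked 5 members, of which Trem2, Gpnmb, Cd63 and Lgals1 were lower and Fabp5 higher, and 16.7% of all tested genes passed that limit. For 3 members, Trem2, Gpnmb and Lgals1, all MøFoxO1-KO mice lay below all WT mice, as for 4.71% of tested genes. For 0 members did all MøFoxO1-KO mice lie above all WT mice, as they did for 5.00% of tested genes. The members were chosen with earlier results of these data known. Trem2 and Gpnmb passed the low-count filter through the WT group alone. The shares of all tested genes are therefore set beside the members as a description and not as a test of the list. Whether the members differ among themselves was not tested, and they are described one by one by role.

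**Figure D1:**
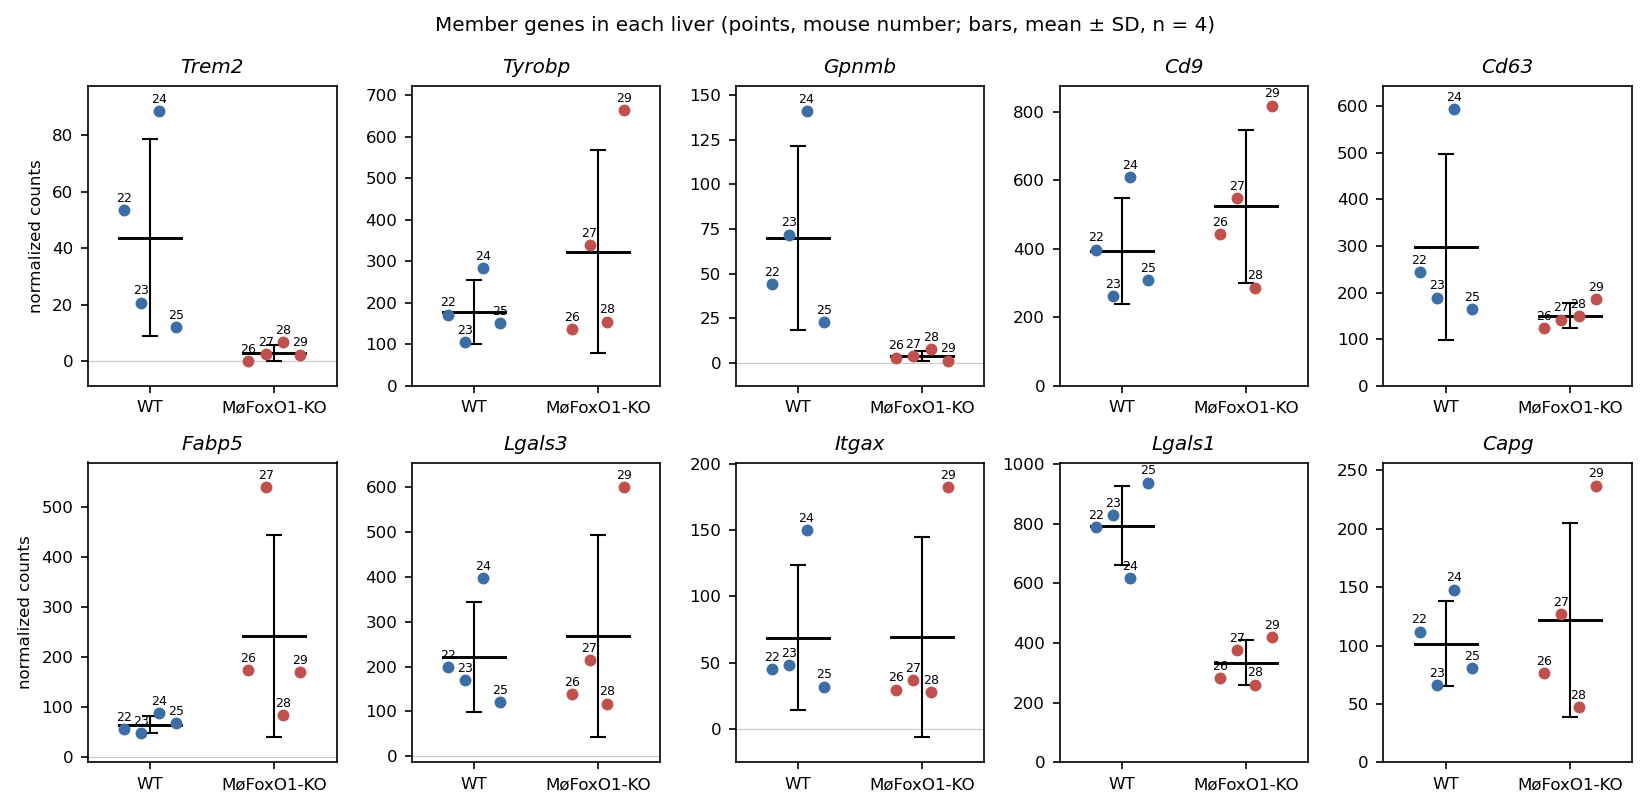
Normalized counts (vertical axes, linear) of the 10 genes in each liver, with blue points for WT and red points for MøFoxO1-KO mice, mouse numbers beside the points, and bars for the mean ± SD of 4 mice. Trem2, Gpnmb and Lgals1 are the panels in which no red point reaches a blue one.

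**Figure D2:**
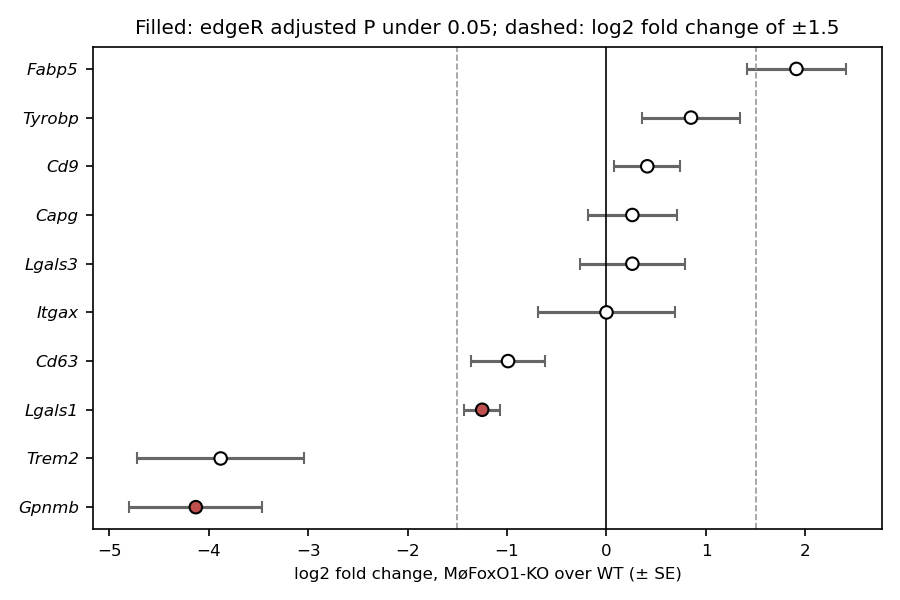
Log2 fold change of each gene in MøFoxO1-KO over WT livers (horizontal axis), with edgeR's standard error as bars, filled points for an adjusted P under 0.05 and dashed lines at an absolute log2 fold change of 1.5. Estimates run from -4.13 for Gpnmb to 1.91 for Fabp5.

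Trem2 (ENSMUSG00000023992, chromosome 17, 48346401 to 48354147 on GRCm38) encodes the receptor after which these macrophages are named. The WT replicates 22, 23, 24 and 25 had 57, 21, 96 and 12 Trem2 counts. The MøFoxO1-KO replicates 26, 27, 28 and 29 had 0, 2, 7 and 2. The highest MøFoxO1-KO mouse, replicate 28, thus stayed below the lowest WT mouse, replicate 25. Normalized Trem2 counts were 43.6 ± 34.9 (SD, n = 4) in WT livers against 2.82 ± 2.77 (SD, n = 4) with the deletion, a 15.5-fold difference of the means. A count of 0, as in MøFoxO1-KO replicate 26, allows up to 3 counts, or 2.88 normalized counts, by counting error alone. The log2 fold change was -3.88 ± 0.84 (SE), the fourth-largest decrease of all tested genes by size, but its adjusted P of 0.0983 (edgeR, Benjamini-Hochberg) missed the limit. DESeq2's Wald test gave an adjusted P of 0.000194 for the same gene, in a test that called 1.22% of its genes, and edgeR without the filter on low counts gave 0.017 and called 0.507% of its genes (Benjamini-Hochberg in both). The exact permutation test gave P = 0.0286, the smallest these groups allow. At least 10 counts were reached by 4 WT mice and 0 MøFoxO1-KO mice, so Trem2 passed the filter through the WT group alone. When 1 mouse was left out, the log2 fold change of Trem2 lay between -4.78 for MøFoxO1-KO replicate 28 and -3.28 for WT replicate 24 left out, with adjusted P from 0.0668 to 0.31 (edgeR, Benjamini-Hochberg). In RNA of whole liver, fewer cells with a transcript and less transcript in each cell cannot be told apart.

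Tyrobp (ENSMUSG00000030579) encodes the adaptor that carries the signal of TREM2 and of many other myeloid and natural killer cell receptors. Normalized Tyrobp counts were 172, 105, 284 and 151 in WT replicates 22 to 25. They were 137, 339, 155 and 664 in MøFoxO1-KO replicates 26 to 29. The groups overlapped, and MøFoxO1-KO replicate 29 had the highest value of all 8 mice. The means were 178 ± 76.0 and 324 ± 244 (SD, n = 4 each), and the log2 fold change of 0.85 ± 0.49 (SE) did not pass (edgeR, Benjamini-Hochberg adjusted P = 0.414). Leaving out MøFoxO1-KO replicate 29 gave a log2 fold change of 0.23. Trem2 per 100 normalized counts of Tyrobp was 31.0, 19.6, 31.2 and 7.89 in the WT mice. It was 0, 0.704, 4.29 and 0.337 in the MøFoxO1-KO mice, so that the groups did not overlap. The means of this ratio were 22.4 ± 11.1 and 1.33 ± 1.99 (SD, n = 4 each). The ratio was chosen after the values of both genes had been seen and is given as a description.

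Gpnmb (ENSMUSG00000029816, chromosome 6, 49036546 to 49070929) encodes a transmembrane glycoprotein of endosomes and lysosomes that accumulates in lipid-laden macrophages. Gpnmb counts were 47, 73, 153 and 23 in WT replicates 22 to 25. In MøFoxO1-KO replicates 26 to 29 they were 3, 3, 8 and 1. Every MøFoxO1-KO liver lay below every WT liver, and WT replicate 24 and MøFoxO1-KO replicate 28 were the highest of their genotype, as they were for Trem2. Normalized Gpnmb counts fell from 70.0 ± 51.5 to 3.79 ± 2.74 (SD, n = 4 each), or 18.5-fold. Its log2 fold change was -4.13 ± 0.67 (SE; edgeR, Benjamini-Hochberg adjusted P = 0.0382), the third-largest decrease of all tested genes by size. The exact permutation test of Gpnmb gave P = 0.0286. As with Trem2, 4 WT mice and 0 MøFoxO1-KO mice reached 10 counts, and the gene passed the filter through the WT group. The call was lost in 7 of 8 fits that left out 1 mouse, where the adjusted P of Gpnmb (edgeR, Benjamini-Hochberg) ranged from 0.0362 to 0.156 and the log2 fold change from -4.72 to -3.54.

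Likeness to Trem2 was measured over the 8 mice as the root mean square difference between mean-centred log2 CPM profiles, and Trem2 itself had a median difference of 1.81 from the other 13277 tested genes. Gpnmb was the gene nearest to Trem2, at 0.69. The next were Cidec at 0.77, which encodes a lipid droplet protein, Haus8 at 0.78, which encodes a subunit of the augmin complex of the spindle, Cyp39a1 at 0.83, an oxysterol hydroxylase of bile acid synthesis, and Pbx4 at 0.85, a homeobox gene. Cidec had 1271 ± 419 normalized counts in WT and 151 ± 112 in MøFoxO1-KO livers (SD, n = 4 each), and Cyp39a1 had 485 ± 111 and 43.1 ± 36.1. Since Trem2 was high in all WT and low in all MøFoxO1-KO mice, this choice of genes fixes their direction, and no test is drawn from it. Among the members, Cd63 ranked 118 and Lgals1 ranked 221 by this measure, and the other 6 ranked between 4837 for Itgax and 13151 for Fabp5.

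**Figure D3:**
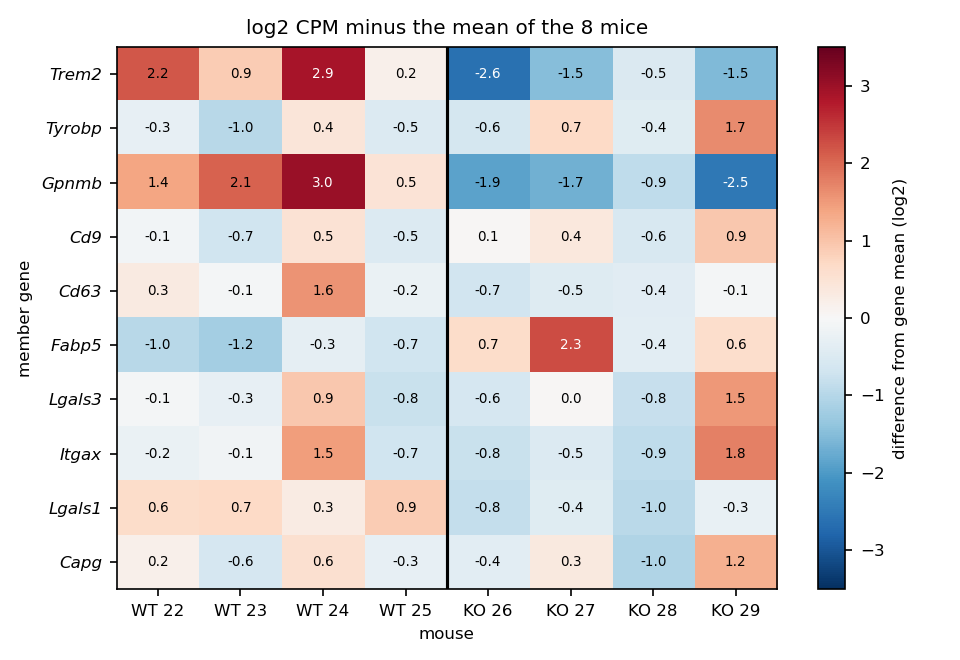
Log2 CPM of each gene in each mouse minus the mean of that gene over the 8 mice (color scale, in log2 units, with the values printed in the cells); the black line divides WT from MøFoxO1-KO mice. Trem2, Gpnmb and Lgals1 are above their mean in all WT mice and below it in all MøFoxO1-KO mice, while Tyrobp, Cd9, Lgals3, Itgax and Capg are highest in MøFoxO1-KO replicate 29.

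The bases upstream of Trem2 and Gpnmb are shown because these were the members with the largest differences. Each run is the 250 bases before the RefSeq start of the gene on GRCm38.p6, plus strand, at chr17:48346151-48346400 for Trem2 and chr6:49036268-49036517 for Gpnmb, in lower case with the match to the PU.1 core in capitals.
Trem2: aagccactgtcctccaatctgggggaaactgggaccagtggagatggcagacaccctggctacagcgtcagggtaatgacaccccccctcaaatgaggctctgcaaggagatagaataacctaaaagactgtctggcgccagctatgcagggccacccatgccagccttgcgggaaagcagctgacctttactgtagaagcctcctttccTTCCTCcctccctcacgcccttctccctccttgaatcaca
Gpnmb: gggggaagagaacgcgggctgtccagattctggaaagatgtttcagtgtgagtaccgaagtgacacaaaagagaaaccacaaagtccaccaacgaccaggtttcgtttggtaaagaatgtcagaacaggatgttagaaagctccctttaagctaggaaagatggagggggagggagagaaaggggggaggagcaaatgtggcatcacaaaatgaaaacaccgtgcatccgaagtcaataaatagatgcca
The set of RefSeq promoter windows used here held 7 of the 10 genes and had no entry for Tyrobp, Fabp5 and Lgals1. Both strands were searched for the letters GTAAACA (the FoxO core), GAGGAA (the core bound by PU.1, a myeloid factor), CACGTG and CATGTG (E-box cores read by the TFEB and MITF family, which acts on lysosomal genes) and TGACTCA (an AP-1 site). The FoxO core was in none of the 7 windows and in 3.17% of all 32851 windows of this length in that set. The PU.1 core was in the Trem2 window, on the minus strand from base -40 to base -35 relative to the start, and in 23.3% of all windows. Cd63 had the PU.1 core at 2 positions, -244 on the strand of the gene and -59 on the opposite strand. The Cd9 window held CATGTG at -38 (12.3% of all windows), on the strand opposite to the gene. The Itgax window held TGACTCA at -56 (4.46% of all windows), also on the opposite strand. CACGTG, present in 6.02% of all windows, was in none of the 7, and the Gpnmb, Lgals3 and Capg windows had no match to any of these letters. A match is a run of letters and was not linked to binding by any measurement here.

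Cd63 and Cd9 encode tetraspanins, small membrane proteins that organize receptors and integrins. CD63 sits mainly in late endosomes, lysosomes and exosomes, and CD9 at the cell surface. Normalized Cd63 counts were 244, 189, 593 and 165 in WT replicates 22 to 25 and 123, 142, 150 and 186 in MøFoxO1-KO replicates 26 to 29. The groups overlapped through MøFoxO1-KO replicate 29, which exceeded WT replicate 25. Cd63 had a log2 fold change of -0.99 ± 0.37 (SE; edgeR, Benjamini-Hochberg adjusted P = 0.234), and -0.41 without WT replicate 24. The exact permutation test of Cd63 gave P = 0.0571.

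Normalized Cd9 counts were 397, 261, 609 and 309 in WT and 443, 548, 287 and 817 in MøFoxO1-KO livers, in the same order of mice. The groups overlapped, with the highest value in MøFoxO1-KO replicate 29. The log2 fold change of Cd9 was 0.41 ± 0.33 (SE; edgeR, Benjamini-Hochberg adjusted P = 0.576). Leaving out WT replicate 24 raised it to 0.70, and leaving out MøFoxO1-KO replicate 29 gave 0.11. The exons of Cd9 overlap those of Gm26728 on the other strand, which was listed at 0 counts in all 8 mice. Of 21 other tetraspanin genes 19 were tested, and 0 passed the adjusted P. Their median log2 fold change was -0.03, and 4 were higher at an unadjusted P under 0.05 (edgeR), namely Tspan4, Tspan12, Tspan13 and Tspan33. Of all 13278 tested genes 1149 were higher at that limit, and 16.7% passed it in either direction.

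Fabp5 (ENSMUSG00000027533) encodes a cytosolic chaperone of fatty acids in macrophages and epithelia. Its normalized counts were 54.3, 47.2, 86.8 and 66.7 in WT replicates 22 to 25. They were 173, 539, 83.5 and 169 in MøFoxO1-KO replicates 26 to 29. Here the direction was opposite to that of Trem2, and only MøFoxO1-KO replicate 28 reached into the WT range. The means were 63.7 ± 17.3 and 241 ± 203 (SD, n = 4 each), 3.78-fold higher in MøFoxO1-KO livers. The log2 fold change of Fabp5 was 1.91 ± 0.50 (SE; edgeR, Benjamini-Hochberg adjusted P = 0.131), and 1.16 without MøFoxO1-KO replicate 27. DESeq2 gave Fabp5 an adjusted P of 0.00301, and the exact permutation test gave P = 0.0571. Among 6 other genes of fatty acid-binding proteins 3 were tested, and 0 passed the adjusted P. Fabp1, the liver form, had 53254 ± 11163 and 78887 ± 20222 normalized counts (SD, n = 4 each; log2 fold change 0.57).

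Lgals1 and Lgals3 encode galectins, proteins that bind galactose-containing sugars on the cell surface and outside the cell. Lgals1 (ENSMUSG00000068220, chromosome 15, 78926725 to 78930465) had 789, 828, 617 and 937 normalized counts in WT replicates 22 to 25. It had 282, 375, 261 and 420 in MøFoxO1-KO replicates 26 to 29. The groups lay well apart, and the spread within each was small beside that of Trem2 or Gpnmb. Lgals1 fell 2.37-fold, from 793 ± 133 to 334 ± 75.5 (SD, n = 4 each). The log2 fold change of -1.25 ± 0.18 (SE) passed the adjusted P (edgeR, Benjamini-Hochberg adjusted P = 0.0337) and ranked 16 of all tested genes by P, but was under the fold limit, so Lgals1 was not called. The exact permutation test of Lgals1 gave P = 0.0286. When 1 mouse was left out, Lgals1 kept an adjusted P under 0.05 in 3 of 8 fits (edgeR, Benjamini-Hochberg, 0.0228 to 0.115), with log2 fold changes from -1.38 to -1.13. Unlike the other 9 members, Lgals1 was highest among WT mice in replicate 25 and lowest in replicate 24.

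Normalized Lgals3 counts were 199, 169, 398 and 120 in WT and 138, 214, 117 and 600 in MøFoxO1-KO livers. The ranges overlapped, with MøFoxO1-KO replicate 29 above all other mice. Lgals3 had a log2 fold change of 0.26 ± 0.53 (SE; edgeR, Benjamini-Hochberg adjusted P = 0.839), which became -0.51 without MøFoxO1-KO replicate 29. Of the 7 other galectin genes listed, 6 were in the table, 3 were tested and 0 passed the adjusted P, with a median log2 fold change of -0.07.

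Itgax encodes the integrin chain CD11c, found on dendritic cells and on macrophages recruited to fatty tissue. Normalized Itgax counts were 45.0, 48.2, 150 and 31.9 in WT and 29.7, 37.0, 27.5 and 182 in MøFoxO1-KO livers. Each genotype thus had 1 mouse far above the other 3, WT replicate 24 and MøFoxO1-KO replicate 29. Both were also the highest of their genotype for Tyrobp, Cd9, Cd63, Lgals3 and Capg, and they differed in Trem2 and Gpnmb. WT replicate 24 had 88.6 normalized counts of Trem2 and 141 of Gpnmb. MøFoxO1-KO replicate 29 had 2.24 and 1.12. The group means of Itgax were 68.9 ± 54.8 and 69.2 ± 75.6 (SD, n = 4 each), with a log2 fold change of -0.00 ± 0.69 (SE; edgeR, Benjamini-Hochberg adjusted P = 0.998), so a sizeable difference in either direction would not have been detected. Without WT replicate 24 the log2 fold change of Itgax was 0.72, and without MøFoxO1-KO replicate 29 it was -1.14. Of the 4 genes of related β2 integrins 3 were tested, with a median log2 fold change of 0.81 (0.23 without MøFoxO1-KO replicate 29) and 0 past the adjusted P. Itgb2, the chain that pairs with CD11c, had 143 ± 77.9 and 272 ± 210 normalized counts (SD, n = 4 each).

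Capg encodes a protein that caps actin filaments and is abundant in macrophages. Normalized Capg counts were 112, 65.9, 148 and 80.6 in WT and 76.7, 127, 47.5 and 237 in MøFoxO1-KO livers. The MøFoxO1-KO mice lay on both sides of the WT range. Capg had a log2 fold change of 0.26 ± 0.45 (SE; edgeR, Benjamini-Hochberg adjusted P = 0.817) and -0.29 without MøFoxO1-KO replicate 29. Across all 10 members, WT replicate 24 was the highest WT mouse for 9. MøFoxO1-KO replicate 29 was the highest MøFoxO1-KO mouse for 7. With both mice left out, Trem2 had a log2 fold change of -3.19 (edgeR, Benjamini-Hochberg adjusted P = 0.312), Gpnmb -3.25 (0.107) and Lgals1 -1.48 (0.0168).

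Levels of different genes were compared per kilobase of exon, with the length of a gene summed over all its annotated exons. This sum was 3567 bases for Fabp5 and 4946 for Trem2. Where it exceeds the length of the mature transcript the level is understated, so the order of genes also depends on the annotation. In WT livers Lgals1 had the highest level, 991 ± 166 normalized counts per kilobase (SD, n = 4), and its range did not overlap that of Tyrobp, the next, at 316 ± 135. Tyrobp, Cd63 (289 ± 193), Cd9 (193 ± 75.5) and Lgals3 (119 ± 65.6) followed with neighbors that overlapped. Capg, at 40.2 ± 14.4, overlapped neither Lgals3 above nor Fabp5 below it. Fabp5 (17.9 ± 4.86), Itgax (17.0 ± 13.6), Gpnmb (10.7 ± 7.91) and Trem2 (8.82 ± 7.05) were the lowest 4 and each overlapped the next. In MøFoxO1-KO livers Tyrobp (574 ± 433) stood above Lgals1 (418 ± 94.4) with overlapping ranges. Gpnmb (0.582 ± 0.420) and Trem2 (0.570 ± 0.561) stood apart at the bottom, below the whole range of Itgax (17.1 ± 18.7).

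The level of macrophage transcripts as a whole differed among the mice and was set beside the members. The summed normalized counts of 13 pan-macrophage genes ranged from 4278 to 6547 in WT and from 4136 to 14354 in MøFoxO1-KO livers, highest in replicate 29. The sum of 9 Kupffer cell genes ranged from 4677 to 6188 in WT and from 4632 to 14658 in MøFoxO1-KO livers. None of the 13 or of the 9 genes was at or under 3 counts in all mice. Of 12 tested pan-macrophage genes 10 had a higher fitted mean in MøFoxO1-KO livers and 5 of them passed an unadjusted P under 0.05 (edgeR). Their median log2 fold change was 0.66. Of all 13278 tested genes 1149 were higher at that limit, and 16.7% passed it in either direction. Of the 9 Kupffer cell genes 8 had a higher fitted mean and 5 of them passed that limit, with a median log2 fold change of 1.08. Without MøFoxO1-KO replicate 29 the medians were 0.30 and 0.51, and 1 pan-macrophage and 3 Kupffer cell genes were higher at that limit. In that fit 1 pan-macrophage gene was lower at the same limit. In both lists 0 genes passed the adjusted P. The log2 fold changes were 1.03 for Adgre1 (F4/80), 0.69 for Csf1r, 0.45 for Cd68, 0.66 for Clec4f and 2.08 for Timd4, the last 2 being Kupffer cell genes (edgeR, Benjamini-Hochberg adjusted P = 0.0968 for Timd4). Marco, a scavenger receptor of Kupffer cells named after its values were seen, had 4.92 to 81.2 normalized counts in WT and 66.4 to 2712 in MøFoxO1-KO livers. Lyz2, whose promoter carries the Cre, had a log2 fold change of -0.77 (edgeR, Benjamini-Hochberg adjusted P = 0.586).

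Per 1000 normalized counts of the pan-macrophage genes, Trem2 was 10.4, 4.83, 13.5 and 2.33 in WT replicates 22 to 25. It was 0, 0.289, 1.61 and 0.156 in MøFoxO1-KO replicates 26 to 29. The ratio of the means was 15.2 for Trem2, beside 15.5 without this division. It was 17.1 with Lyz2 left out of the divisor and 18.8 with the Kupffer cell genes as divisor. The mean of the pan-macrophage sum was itself higher in MøFoxO1-KO livers, 8184 against 5269, and that of the Kupffer cell sum 8981 against 5242. Division by a sum that is higher there tends to keep or widen the gap of a gene that is lower. No conclusion is therefore drawn from the size of these ratios. For Gpnmb the values were 8.60, 16.8, 21.6 and 4.46 in WT and 0.482, 0.433, 1.84 and 0.0780 in MøFoxO1-KO livers, 18.2-fold apart. For Lgals1 they were 154, 194, 94.3 and 183 in WT and 47.2, 45.3, 63.1 and 29.2 in MøFoxO1-KO livers, 3.38-fold apart. These 3 were the members with no overlap on this scale, where 2.31% of all tested genes had all MøFoxO1-KO mice below all WT mice. Cd63 joined them when the Kupffer cell genes were the divisor. Tyrobp per 1000 was 32.8 ± 8.0 in WT and 36.9 ± 9.97 in MøFoxO1-KO livers, and Cd9 was 72.9 ± 15.6 and 66.7 ± 7.27 (SD, n = 4 each), both overlapping. Fabp5 was 12.0 ± 1.34 and 31.5 ± 23.5, with MøFoxO1-KO replicate 29 at 11.8, inside the WT range.

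**Figure D4:**
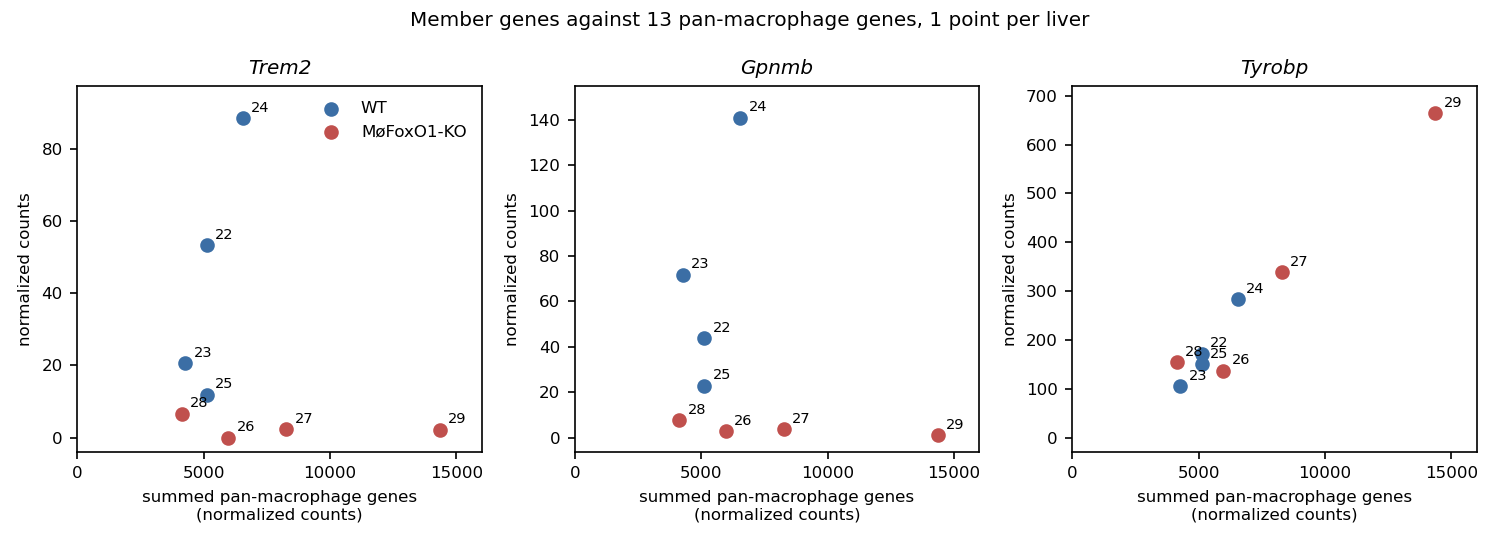
Normalized counts of Trem2, Gpnmb and Tyrobp (vertical axes) against the summed normalized counts of 13 pan-macrophage genes (horizontal axes), 1 point per liver with its mouse number, blue for WT and red for MøFoxO1-KO. MøFoxO1-KO replicate 29 has the highest macrophage sum, 14354, and the highest Tyrobp, 664, with 2.24 Trem2 and 1.12 Gpnmb.

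Partners of TREM2 and further genes of lipid-associated macrophages were read from lists. Of 16 genes of TREM2 signaling 15 were tested, 12 with a higher and 3 with a lower fitted mean in MøFoxO1-KO livers, a median log2 fold change of 0.20 and 0 past the adjusted P. Without MøFoxO1-KO replicate 29 these were 6 and 9 genes and a median of -0.04. Hcst, which encodes the adaptor DAP10, had 10.4 ± 5.67 and 24.7 ± 15.9 normalized counts (SD, n = 4 each; edgeR, Benjamini-Hochberg adjusted P = 0.284). Syk, the kinase that TYROBP recruits, had a log2 fold change of 0.44, and Plcg2, a phospholipase downstream of it, 0.46. A list of 12 genes held the Trem family, other TYROBP-coupled receptors and the adaptor gene Fcer1g. Only 5 of these 12, Fcer1g among them, had enough counts to be tested, with a median of 0.05 and 0 past the adjusted P. Fcer1g, the adaptor most like Tyrobp, had 175 ± 83.7 and 315 ± 172 normalized counts.

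Of 25 further genes of lipid-associated macrophages 24 were tested, 10 with a higher and 14 with a lower fitted mean, a median log2 fold change of -0.13. In RNA of whole liver, transcripts of these genes could not be assigned to lipid-associated macrophages or to any other cell type. In this list 1 gene was called, where 0.188% of all tested genes were. It was Anxa5, which encodes the phosphatidylserine-binding protein annexin A5. Anxa5 fell from 1517 ± 511 to 399 ± 62.5 normalized counts (SD, n = 4 each; log2 fold change -1.93 with edgeR; Benjamini-Hochberg adjusted P = 0.0171). Mmp12, the macrophage elastase, had 100, 139, 289 and 27.9 normalized counts in WT and 7.67, 9.55, 4.75 and 30.2 in MøFoxO1-KO livers. Its groups overlapped through WT replicate 25 and MøFoxO1-KO replicate 29, and its log2 fold change of -3.43 missed the limit (edgeR, Benjamini-Hochberg adjusted P = 0.0978). Spp1, which encodes osteopontin, was nearly level at 1280 ± 202 and 1090 ± 203, as was Lpl, which encodes lipoprotein lipase, at 974 ± 435 and 1109 ± 271 (SD, n = 4 each). Their log2 fold changes were -0.23 for Spp1 and 0.19 for Lpl (edgeR, Benjamini-Hochberg adjusted P = 0.514 and 0.799). Pla2g7, named after its values were seen, encodes a secreted phospholipase and was the 1 gene of the list on the higher side at an unadjusted P under 0.05 (edgeR; log2 fold change 1.47; Benjamini-Hochberg adjusted P = 0.187). At that limit 5 genes of the list were lower, and 16.7% of all tested genes passed in either direction.

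Markers of other cells that transcribe some of the members were also read. Stellate cell and myofibroblast genes, a source of Lgals1, had a median log2 fold change of -0.12 over 10 tested genes, with 0 past the adjusted P. At an unadjusted P under 0.05 (edgeR) 3 of the 10 were lower, as were 1070 of all 13278 tested genes. These 3 were Col1a1, Col1a2 and Col3a1, the last 2 with a log2 fold change of -0.76 each. Col1a1, the main collagen chain of scar, had 513, 322, 404 and 249 normalized counts in WT and 110, 46.6, 228 and 227 in MøFoxO1-KO livers, with no overlap (log2 fold change -1.28 with edgeR; Benjamini-Hochberg adjusted P = 0.193). The summed stellate cell list ranged from 4721 to 7642 in WT and from 5153 to 8578 in MøFoxO1-KO livers. Dcn was the largest part of this sum, with means of 3555 in WT and 4048 in MøFoxO1-KO livers. The means of the whole sum were 6773 and 6550, so the sum says little about the collagen genes. The part of these cells in the Lgals1 difference was not tested. Medians of the other lists were 0.46 for 5 tested monocyte, -0.05 for 3 neutrophil, 0.30 for 4 dendritic cell and 0.43 for 7 T and B cell genes. They were -0.19 for 5 cholangiocyte, 0.24 for 7 sinusoidal endothelial and 0.19 for 7 hepatocyte genes. Of the 5 monocyte genes 4 were higher and 1 was lower, Ccr2, at -0.25. With MøFoxO1-KO replicate 29 left out, the first 4 of these medians were -0.11, -0.37, 0.21 and 0.22. Of these lists only the hepatocyte one held a gene past the adjusted P, Serpina1c, an α1-antitrypsin gene with close paralogs, which rose from 18307 ± 6429 to 51348 ± 7124 normalized counts (edgeR, Benjamini-Hochberg adjusted P = 0.037). Krt19, a cholangiocyte keratin, had a log2 fold change of -0.43. Of the 7 neutrophil genes, 3 were tested, and Ly6g, Mmp8 and Cxcr2 had no more than 3 counts in every mouse.

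**Figure D5:**
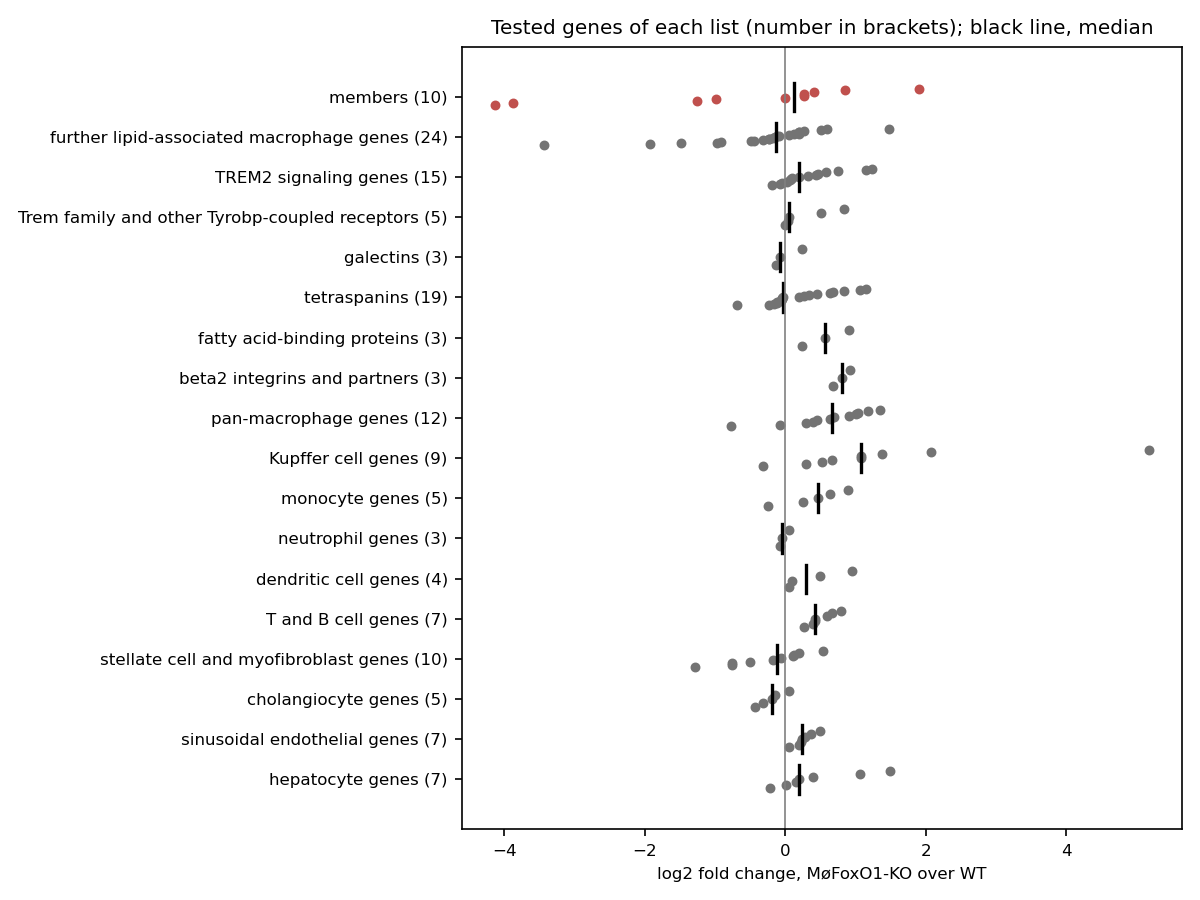
Log2 fold change in MøFoxO1-KO over WT livers (horizontal axis) of each tested gene in the 10 members (red) and in 17 other lists (gray), with the number tested in brackets and a black line at the median. The members spread from -4.13 to 1.91 around a median of 0.13, and the point farthest to the right, at 5.18, is Marco among the Kupffer cell genes.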

How the data were processed

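The authors deposited 1 table of counts, that is, reads per Ensembl gene for 8 livers, without normalization. The submitters' processing notes name STAR, featureCounts and mm10. Versions, strand setting and treatment of multi-mapping reads are not given in the sources used here. Processed pseudogenes of Cd9, Cd63, Lgals1 and Fabp5 had at most 6 counts in any mouse. Counts were filtered with filterByExpr (minimum count 10, minimum total 15), scaled by TMM and compared with edgeR's quasi-likelihood test (version 4.0.16, R 4.3.3; genotype was the only term) on all 13278 remaining genes, and members were read out of that fit. Exact permutation tests used scipy 1.17.1. Alternatives were DESeq2 1.42.0, limma-voom (limma 3.58.1), other normalizations, filters and thresholds, a length offset and leaving out each mouse. A joint length and GC offset, leaving out WT replicate 24 and MøFoxO1-KO replicate 29 together, a macrophage sum without Lyz2 and the ratio of Trem2 to Tyrobp were chosen after seeing the data. Methods were tested on simulated counts that gave every gene the same relative spread between mice. That run does not show how the tests behave at the spread and low counts of Trem2 and Gpnmb. Named genes are all members, other listed genes past the adjusted P, a set of partner and marker genes, and the 5 genes most like Trem2. The members and all lists were chosen with earlier results of these data known. Promoter sequences are from RefSeq (GRCm38.p6).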

Additional observations from a re-analysis of the deposited data

Results flagged for a closer look

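Itgax had 150 normalized counts in WT replicate 24 and 182 in MøFoxO1-KO replicate 29. In each genotype the gap from this mouse to the nearest of the other 3, divided by the range of the group, exceeded Dixon's limit for 4 values, at 0.862 and 0.939. These were the only such cases in the 20 groups examined (10 members in 2 genotypes), and chance gives about 1 in 20. The same 2 mice were the highest of their genotype for Tyrobp, Cd9, Cd63, Lgals3 and Capg.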

How the results depend on the processing

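Over all genes, the count called was 25, against 176 with DESeq2, 120 without a filter on low counts, 13 with limma-voom, 1 at an adjusted P under 0.01, and 3 (without WT replicate 25) to 82 (without MøFoxO1-KO replicate 28) when 1 mouse was left out. Of the members, 1 was called, against 3 with DESeq2 or without the filter (Gpnmb, Trem2 and Fabp5), 2 with the length offset, with the length and GC offset or with an absolute log2 fold change over 1 (Gpnmb and Lgals1), and 0 with limma-voom, with at least 10 counts in every mouse, at an adjusted P under 0.01 or without WT replicate 24 and MøFoxO1-KO replicate 29 together. At the adjusted P alone 2 members passed, against 4 with DESeq2 or without the filter and 1 with limma-voom, with at least 10 counts in every mouse or without those 2 mice. Leaving out 1 mouse gave 0 to 1 members called and 0 to 2 at the adjusted P. Itgax changed sign, to 0.02 with DESeq2, DESeq2 size factors or upper-quartile normalization and 0.04 with either offset, and ranged from -1.14 to 0.72 when 1 mouse was left out. Lgals3 ranged from -0.51 to 0.71 and Capg from -0.29 to 0.54, and both were lower, at -0.06 and -0.05, without the 2 mice. The causes were not tested. The other 7 members kept their sign in every alternative that gave a value. A minimum of 10 counts in every mouse removes Trem2 and Gpnmb, which then have no value. Precision for Trem2 and Gpnmb is limited by 0 to 8 counts per MøFoxO1-KO liver. No paired analysis was possible because the sample labels give neither the litter of a mouse nor any other pairing.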
